A study of Drosophila melanogaster with 3 samples.

Results

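Mitochondrial ribosomal protein genes were taken as the 73 protein-coding genes of the Ensembl BDGP6 annotation whose symbol starts with mRpL (47 genes, large subunit) or mRpS (26 genes, small subunit), of 13968 protein-coding genes in all. They were examined in ChIP-seq, which sequences the DNA that is recovered with a protein, for the fly zinc-finger protein CG10274. Whole Drosophila melanogaster embryos of pooled sex, aged 0 to 24 h, came from 1 transgenic line that stably expresses CG10274 with GFP fused to its C-terminus, and an antibody against GFP was used. The 3 samples were biological replicates 1, 2 and 3 of this 1 group, with chromatin sonicated to 200 to 800 bp, and no untagged or input sample was analysed here. Whole embryos of these ages hold all tissues and stages together, so a peak cannot be given to a cell type.

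Mitochondria carry their own ribosomes, which translate the few proteins encoded by the mitochondrial genome, nearly all of them core subunits of the respiratory chain. The ribosomal RNAs are made inside the organelle, while the ribosomal proteins are encoded in the nucleus, made in the cytosol and imported. Some have counterparts in the bacterial ribosome and others were added during the evolution of mitochondria. Their genes are generally expressed in all tissues, and in flies a partial loss of tko, which encodes another protein of this ribosome, causes developmental delay and sensitivity to mechanical shock.

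The files give ranked peaks: 30000 entries for each replicate, 30000 for the pooled replicates, and 2988 combined peaks kept by the authors' filter on rank agreement between replicates (IDR). The combined peaks were exactly the 2988 highest-scoring entries of the pooled list. The score of a peak is the authors' own and is not scaled between lists, so the relative score is used here, which is the score of the best overlapping entry in a replicate over the median such score of the same replicate, taken across the 2292 combined peaks with an entry in all 3 replicates. A gene was said to have a peak where a summit lay within 500 bp of any of its annotated transcription start sites. Read totals are not part of the lists, so the depth is unknown. No test was run on these counts, since there is 1 group, and most counts are set beside the same count over all protein-coding genes.

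Peaks were found at 10 of the 73 genes in the combined list, and 101-bp windows centred on the summit are printed here for 5 of them. The 5 windows printed touch no annotated UTR. All are plus-strand dm6 sequence. In the first 4, which are intergenic, capitals mark runs of 8 or more A or T. In the last, which lies in a coding exon of mRpS30, capitals mark a 6-letter word described with the results on sequence. Of the windows not printed, those of mRpS2 and mRpL53 had no run of 8 or more A or T, and those of mRpL41, mRpL23 and mRpL34 had one.
mRpS23 (chr2L:13835424-13835524): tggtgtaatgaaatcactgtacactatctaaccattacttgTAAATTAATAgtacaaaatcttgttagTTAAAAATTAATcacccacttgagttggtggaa
mRpS10 (chr3R:15229476-15229576): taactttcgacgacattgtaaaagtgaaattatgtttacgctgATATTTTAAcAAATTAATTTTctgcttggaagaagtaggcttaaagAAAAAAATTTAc
mRpL24 (chr2L:4945455-4945555): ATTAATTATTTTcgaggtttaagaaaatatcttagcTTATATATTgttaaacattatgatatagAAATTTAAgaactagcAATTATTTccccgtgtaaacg
mRpL20 (chr3L:13018117-13018217): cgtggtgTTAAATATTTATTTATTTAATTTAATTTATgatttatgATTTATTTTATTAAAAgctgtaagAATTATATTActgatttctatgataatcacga
mRpS30 (chrX:15786392-15786492): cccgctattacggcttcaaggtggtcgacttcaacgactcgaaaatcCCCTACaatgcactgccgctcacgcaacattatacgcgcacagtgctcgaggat

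The first question was how many of the genes carried a peak. In the combined list 13.7% did (95% Wilson interval 7.61 to 23.4), against 11.1% of all protein-coding genes, so the members lay close to the background. Counting a peak only for the gene with the nearest start, ties kept, left 5 members (6.85%), against 8.53% of protein-coding genes, which turns the order round. The 5 include mRpL53, which shares its nearest start with CG33155. Large-subunit genes had a peak at 6 of 47 (12.8%, 5.98 to 25.2) and small-subunit genes at 4 of 26 (15.4%, 6.15 to 33.5). The intervals cover the counting of genes only. In the replicates' own 2988 highest-scoring entries, a summit was in reach of 12 members in replicate 1 (16.4%, against 11.1% of protein-coding genes), of 9 in replicate 2 (12.3%, against 10.6%) and of 8 of the 73 in replicate 3 (against 7.93% of protein-coding genes). The mean over replicates was 13.2% ± 2.85 for members and 9.89% ± 1.71 for protein-coding genes (SD, n = 3 each). In these top 2988 entries members stood above the background in 3 of 3 replicates, by 3.36 ± 1.83 percentage points. That rests on counts of 12, 9 and 8 genes, many of them the same genes. Shares by nearest gene or by close neighbours are not given per replicate, so it cannot be read as an excess particular to members. A top entry in all 3 replicates was present at 6 members (8.22%, 3.82 to 16.8), against 5.33% of protein-coding genes.

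The 10 peaks differed 8.89-fold in combined score, and 5 of them were among the 300 highest of the 2988. By gene symbol, 4 peaks lay at genes named for the small subunit. The mRpS10 peak, at a gene for a protein with a bacterial counterpart, S10, had relative scores of 3.91, 4.35 and 4.48 in replicates 1, 2 and 3 (mean 4.25 ± 0.301, SD, n = 3). The 3 replicates were close to each other, at ranks 189, 125 and 126 of their lists.

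The mRpS30 peak varied most among those listed in every replicate, with 4.58, 1.74 and 2.51 (mean 2.94 ± 1.47, SD, n = 3). Replicate 1 was the high one. The mammalian counterpart of mRpS30 was named for the small subunit and was later placed in the large one. The mRpS2 peak, at the gene for the counterpart of bacterial S2, had 0.996, 0.853 and 0.993 (mean 0.947 ± 0.0817, SD, n = 3). That was near the median of the combined peaks with an entry in all 3 replicates. Its combined score was 1.17 times the median of the whole combined list.

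The strongest peak of all, at rank 109, was within reach of mRpS23, a gene for a protein with no bacterial counterpart. Its relative scores were 4.38 in replicate 1 and 5.90 in replicate 2, at ranks 167 and 76. Replicate 3 listed no overlapping entry, and its nearest summit lay 3917 bp away. Among the 300 highest combined peaks 14 had no overlapping entry in replicate 3 (4.67%), against 21.3% of the whole combined list. Among peaks ranked as high as that of mRpS23 or higher there were 2, itself included.

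At large-subunit genes, the mRpL41 peak had relative scores of 4.08, 3.29 and 4.67 (mean 4.02 ± 0.693, SD, n = 3). mRpL41 is another protein without a bacterial counterpart. At mRpL23, whose bacterial counterpart sits at the exit of the peptide tunnel, the scores were 2.25, 2.98 and 2.93 (mean 2.72 ± 0.407, SD, n = 3). At mRpL24 they were 1.09, 1.08 and 1.49 (mean 1.22 ± 0.236, SD, n = 3). These 3 peaks were listed in every replicate, and the 3 values of mRpL24 all lay below the lowest of mRpL23.

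The other 3 large-subunit peaks had no overlapping entry in replicate 3. The mRpL20 peak had 0.765 in replicate 1 and 0.711 in replicate 2, while its combined score was 1.02 times the median of the whole combined list. At mRpL34 the values were 0.423 and 0.925, and the replicate 1 value comes from an overlapping entry whose summit was 358 bp from the combined one. At mRpL53, whose product has no bacterial counterpart, they were 0.476 and 0.504, at ranks 4890 and 3360, outside the top 2988 of either replicate. In all, 6 of the 10 peaks were supported by the top entries of 3 replicates (mRpS10, mRpS30, mRpS2, mRpL41, mRpL23 and mRpL24), and 50.3% of all combined peaks were. Replicate 3 had no entry for 4 of the 10, and the part of its lower scores in this was not tested.

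**Figure D1:**
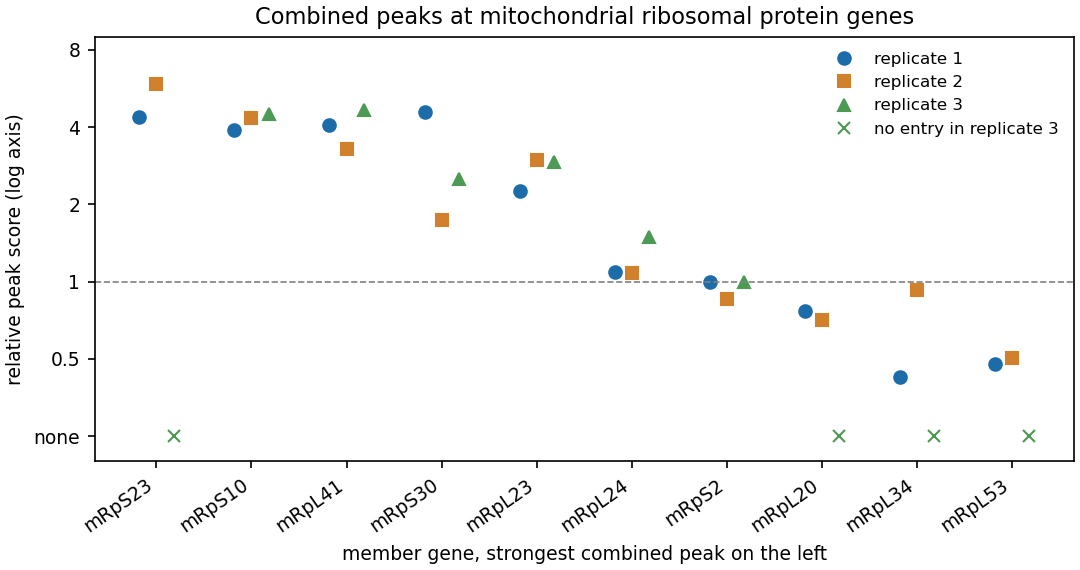
Relative score (log axis) of the combined peak at each of 10 mitochondrial ribosomal protein genes in replicates 1, 2 and 3, 1 point per replicate. The dashed line is at the median of the combined peaks with an entry in all 3 replicates. Crosses stand where replicate 3 had no overlapping entry. mRpS10 and mRpL41 stand near 4 in all 3 replicates, and mRpS23, at 4.38 and 5.90, has no replicate 3 value.

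The second question was whether these peaks belong to the ribosomal protein gene or to its neighbour. Another gene's start site was within 500 bp of the summit at 9 of the 10 peaks, and it was the nearer one at 5. The mRpS23 summit lay 402 bp upstream of mRpS23 (FBgn0260407, arm 2L, 13834250 to 13835072, minus strand) and 90 bp upstream of CenG1A, which encodes a GTPase-activating protein for Arf. The mRpS10 summit lay 139 bp upstream of mRpS10 (FBgn0038307, arm 3R, 15229665 to 15230516, plus strand) and 118 bp upstream of Art3, an arginine methyltransferase gene. The replicates' own summits at mRpS10 lay 140, 133 and 153 bp from mRpS10 and 117, 124 and 104 bp from Art3 in replicates 1, 2 and 3, so Art3 was the nearer in all 3.

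The mRpL24 summit was 144 bp upstream of mRpL24 (FBgn0031651, arm 2L, 4944256 to 4945361, minus strand) and 74 bp upstream of betaggt-I, which encodes the beta subunit of geranylgeranyl transferase I. At mRpL20 (FBgn0036335, arm 3L, 13017149 to 13017867, minus strand) the summit was 300 bp upstream of the gene and 99 bp upstream of Icmt, which encodes the enzyme that methylates prenylated cysteines. At mRpS2 (FBgn0031639, arm 2L, 4849439 to 4850419, minus strand) it was 198 bp upstream of the gene and 24 bp upstream of Mon1, a subunit of the exchange factor for Rab7. In these 5 cases the neighbour is transcribed away from the ribosomal protein gene on the other strand, and the summit fell between the start sites.

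At mRpL34 (FBgn0083983, arm 2R, 16098948 to 16099337, plus strand) the distances were nearly equal, 190 bp upstream of mRpL34 and 194 bp upstream of Dg, the dystroglycan gene. The best-scoring overlapping entries went opposite ways there. That of replicate 2 had its summit nearer to Dg (168 bp, against 216 bp to mRpL34). That of replicate 1, at rank 6120, was nearer to mRpL34 (168 bp, against 552 bp to Dg), but its summit was 358 bp from the combined one. Replicate 1 also had a summit 22 bp from the combined one, at rank 6660, whose nearer start is not given here. The replicates therefore cannot be said to disagree on the nearer start. With mRpL34, 6 of the 10 peaks lay between the starts of a divergent pair. The share of all combined peaks placed in this way is not given here, so the 6 cannot be read as particular to these genes. At mRpL53 (FBgn0050481, arm 2R, 13954195 to 13955664, plus strand) the summit was 33 bp upstream of a start site that mRpL53 shares with CG33155, within an intron of AGO1, the Argonaute-1 gene, and at -137 bp from an AGO1 start.

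The ribosomal protein gene's own start was the nearest at 4 peaks (40.0%), those of mRpL41, mRpS30, mRpL23 and mRpL34, against 1265 of 1728 pairs of a combined peak and a protein-coding gene (73.2%). Apart from mRpL34, the nearer start was the same in every replicate with an overlapping entry as in the combined list. Counting only genes with another gene's start within 500 bp of their own, it was 3 of 9 (33.3%), against 516 of 943 pairs (54.7%). The mRpL41 summit lay 132 bp upstream of mRpL41 (FBgn0034001, arm 2R, 15217024 to 15217617, minus strand), and the other start in reach, of lncRNA:CR44463, was 446 bp away. At mRpL23 (FBgn0035335, arm 3L, 2372844 to 2373704, minus strand) the summit was 80 bp downstream of the nearest of the gene's 3 starts, in its 5' UTR. It was also 130 bp upstream of CG9004, whose start is 50 bp from that nearest start of mRpL23. At mRpS30 (FBgn0030692, arm X, 15786047 to 15788288, plus strand) it was 395 bp inside the gene, in a coding exon, with no other start in reach. Coding exons held 35 of the 2988 combined summits (1.17%), and mRpS30 was the only member among them.

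**Figure D2:**
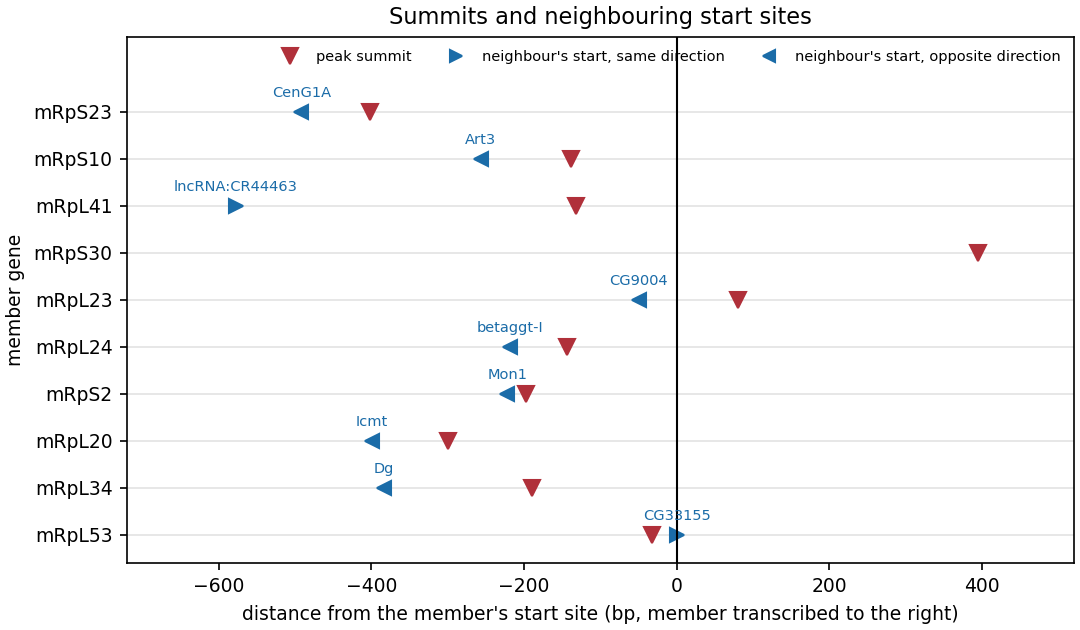
Distance in bp of each combined summit (red triangle) and of the start site of the nearest other gene in reach (blue triangle, pointing in that gene's direction) from the start of the ribosomal protein gene, which is at 0 and transcribed to the right. In 6 of the 10 rows the summit lies between the starts of an opposed pair, with no such share over all combined peaks given. At mRpS2 the summit is 24 bp from the start of Mon1.

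Close neighbours were common in the whole group. Another gene's start lay within 500 bp of a start of 54 of the 73 members (74.0%), against 34.4% of protein-coding genes. Members with such a neighbour had a combined peak at 9 of 54 (16.7%), and 17.8% of the 4805 protein-coding genes with such a neighbour did. Members without one had a peak at 1 of 19 (5.26%, mRpL41), against 7.56% of protein-coding genes. Within each class the members' share was slightly below that of the other genes, while over all genes it was slightly above. The part of close neighbours in the count over all genes was not tested. Members had few start sites each, with 67 of 73 having 1 and a mean of 1.10, against 1.41 for protein-coding genes.

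The median summit position was -142 bp from the start of the ribosomal protein gene (quartiles -196 and -57.8, n = 10 peaks), where negative is upstream, against -150 bp for the other protein-coding genes (quartiles -264 and -58.0, n = 1718 pairs). The summit was upstream at 8 of 10 member peaks, against 84.5% of the other pairs. In the replicates' own top entries the members' median was -139, -163 and -110 bp in replicates 1, 2 and 3.

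The third question was what happens below the combined list. Of the 63 members with no combined peak, 20 had a pooled summit in reach by rank 10000, 16 had one only further down, and 27 had none. By rank 10000 of the pooled list 30 of 73 members were reached (41.1%, 30.5 to 52.6), against 25.4% of protein-coding genes, and in the whole list 46 (63.0%), against 42.6%. Members also had another gene's start within 500 bp more often (74.0%, against 34.4%). Shares by such neighbours or by nearest gene are not given for these lists, and the part of close neighbours was not tested. By rank 10000 of the pooled list, small-subunit genes were reached more often, at 15 of 26 (57.7%, 38.9 to 74.5), than large-subunit genes at 15 of 47 (31.9%, 20.4 to 46.2). In the top 10000 of replicate 1, 13 of 26 small-subunit and 23 of 47 large-subunit genes (48.9%) were reached. In replicate 2 it was 38.5% of small-subunit and 23.4% of large-subunit genes, and in replicate 3 it was 19.2% and 12.8% of the same. In the whole list of replicate 1 the order was reversed, with 69.2% of small-subunit and 80.9% of large-subunit genes. Small-subunit genes stayed ahead in the other whole lists. These were replicate 2 (57.7%, against 38.3% of large-subunit genes), replicate 3 (26.9%, against 12.8%) and the pooled list (73.1%, against 57.4%). The difference between the subunits was not tested. The authors describe these lists as peaks and background, and low entries were not read as binding.

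The replicates differed in how far members stood above the background among these lower entries. In the top 10000, members were at 49.3% in replicate 1 (against 29.5% of protein-coding genes), at 28.8% in replicate 2 (against 21.0%) and at 15.1% in replicate 3 (against 13.1%). In all 30000 entries they were at 76.7% in replicate 1 (against 49.7%), at 45.2% in replicate 2 (against 36.8%) and at 17.8% in replicate 3 (against 23.5%). The difference averaged 9.83 ± 9.08 percentage points at 10000 and 9.92 ± 16.4 at 30000 (SD, n = 3 each), so it was about as large as the spread between replicates at 10000 and smaller than it at 30000, where replicate 3 was reversed, at -5.70 points. Replicate 3 also reached the fewest protein-coding genes at 2988, 10000 and 30000 entries. The part of close neighbours in these differences was not tested either.

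**Figure D3:**
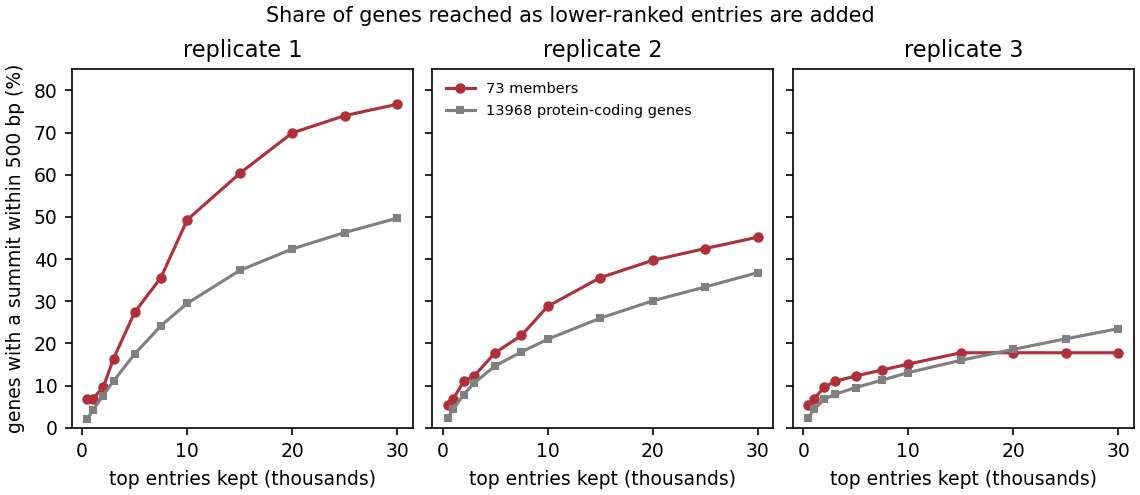
Share (%) of the 73 mitochondrial ribosomal protein genes (red) and of the 13968 protein-coding genes (grey) with a summit within 500 bp of a start site, as more entries of each replicate's list are kept (x axis, in units of 1000). The curves part in replicate 1, where members reach 76.7%, and cross in replicate 3, where members stop at 17.8%.

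The 5 members with the highest pooled score and no combined peak were mRpL11, mRpS7, mRpL21, mRpL54 and mRpS22, at pooled ranks 3208, 3412, 3642, 4356 and 4505, just past the 2988 of the combined list. mRpL11, whose bacterial counterpart sits at the GTPase centre of the ribosome, was listed in all 3 replicates, at ranks 3784, 9748 and 2080, with pooled summit at -157 bp. mRpS22 was at rank 2027 in replicate 1 and 5206 in replicate 3, with no entry in reach in replicate 2. mRpL21 was at ranks 2636 and 3588 in replicates 1 and 2. mRpL54 and mRpS7 were at 2875 and 3997 in replicate 1 and at 14973 and 11560 in replicate 2. A top entry in exactly 1 replicate and no combined peak was seen at 6 members, which are mRpL11, mRpL21, mRpL54, mRpS22, mRpS17 and mRpL37, the last 2 named after their values were seen. The share of all protein-coding genes in this class is not given here, so the 6 cannot be read against a background.

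No summit was in reach in any list for 11 of the 73 members. The same count over all protein-coding genes is not given here, so the 11 cannot be read against a background. The genes tko and bonsai encode mitochondrial ribosomal proteins under other symbols, the counterparts of S12 and S15, and were not counted as members. tko (arm X) had no summit in reach in any list. bonsai (arm 2R) had entries only at ranks 18262 and 7662 of replicates 1 and 2.

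**Figure D4:**
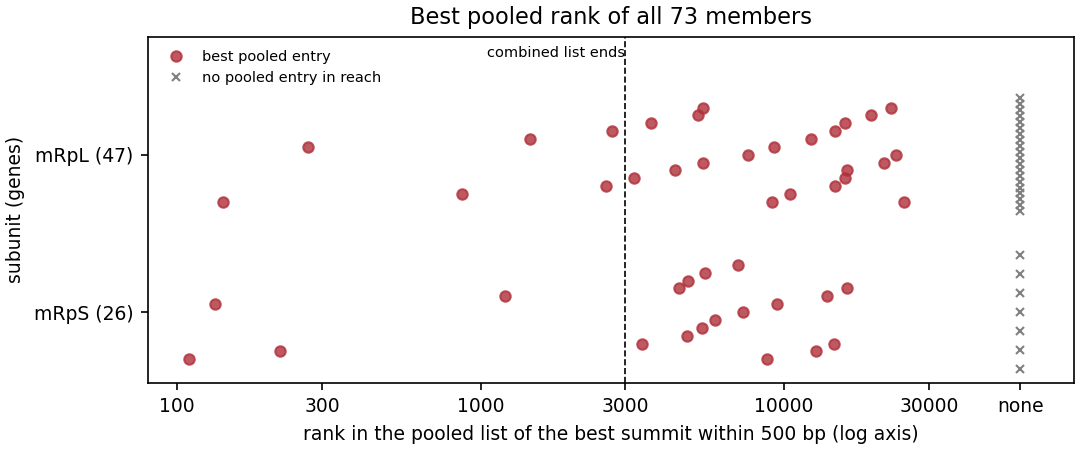
Rank in the pooled list (log axis) of the best summit within 500 bp of each of the 73 genes, by subunit, with crosses for genes without any pooled summit in reach and the dashed line at the end of the combined list, rank 2988. The 10 points left of the line are the genes with a combined peak, and 27 genes have none at any rank.

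Other lists of mitochondrial genes had between 0% and 22.2% of their genes with a combined peak. Mitochondrial aminoacyl-tRNA synthetase genes, whose products charge tRNAs in the organelle, had a combined peak at 1 of 15 (6.67%, 1.19 to 29.8), LeuRS-m, which stood at relative scores of 7.25, 5.24 and 7.48 with its summit 20 bp inside the gene. Mitochondrial translation factor genes had 0 of 9, which allows a share of up to 33.3%, and also 0 of 9 in each replicate's top entries. Genes of mitochondrial transcription, RNA and DNA maintenance had 4 of 18 (22.2%, 9.0 to 45.2), with PNPase (polynucleotide phosphorylase) at 44.8, 31.7 and 40.1, SLIRP2 at 2.45, 2.51 and 3.47, and SLIRP1, whose summit was equally near to anox, at 1.31 and 0.948 in replicates 1 and 2. The SLIRP proteins are RNA-binding relatives of a human stabiliser of mitochondrial messenger RNA.

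Respiratory chain genes, whose products assemble with those the mitochondrial ribosome makes, had 6 of 87 (6.90%, 3.20 to 14.2), led by ND-ASHI (2.13, 2.75 and 2.31), ND-MWFE (0.760, 1.52 and 1.10) and COX7AL2 (0.628 and 0.663 in replicates 1 and 2). The summit nearest ND-ASHI was closer to Fum1, and that nearest ND-MWFE closer to TppII. Protein import genes had 2 of 18 (11.1%, 3.10 to 32.8), Tom7 (1.53 and 1.36 in replicates 1 and 2) and Hsc70-5 (1.10 and 1.42 in the same). The summit near Tom7 was closer to a start shared by CG8229 and CG33199. Each interval includes the 11.1% of all protein-coding genes. Cytosolic ribosomal protein genes, chosen by symbols that start with RpL or RpS and including relatives named as "-like", had 62 of 92 (67.4%, 57.3 to 76.1), whose interval lies above that of the mitochondrial group. Peaks at mitochondrial ribosomal protein genes had a median combined rank of 570 (n = 10 peaks), against 1012 at cytosolic ones (n = 64 peaks) and 1320 over all 1728 pairs of a combined peak and a protein-coding gene. Among the 300 highest were 5 of 10, against 2 of 64 cytosolic peaks and 12.3% of all pairs, and 2 of those 5, at mRpS23 and mRpS10, were nearer to a neighbour. The leading cytosolic ones were RpS27 (3.33, 4.96 and 4.99), RpL7 (2.96, 4.78 and 3.55) and RpS28b (1.93, 2.70 and 2.43).

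The last question was which sequence lay under the summits. The 101-bp windows at the members' summits had a median A+T content of 71.8% (range 43.6 to 82.2, n = 10), against 65.3% at the other combined summits near protein-coding starts (quartiles 56.4 and 71.3, n = 1306). Windows 500 bp to either side had 50.5% for the members (n = 20) and 54.5% for the others (n = 2612). Summits at cytosolic ribosomal protein genes had 51.5% (n = 64). A run of 8 or more A or T, as capitalised in the printed windows, was present at 7 of 10 member summits (70.0%) and at 68.6% of the others. The longest, of 30 letters, was at mRpL20. mRpS30 at 46.5% and mRpL53 at 43.6% were the members lowest in A+T.

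Of 6 motifs searched as exact letters on both strands within 50 bp of the summit, 5 matched at 0 of 10 member summits. They were TATCGATA of DREF, GGTCACACT of M1BP, CACGTG of bHLH-zip factors, CGCATGCG of erect wing, the relative of NRF1, and GAGAGAG of the GAGA factor. These were rare at the other 2978 combined summits too, at 1.24%, 0.403%, 1.07%, 0.0672% and 0.940%. TATAAA matched at 1 summit, mRpL23, and at 19.9% of the others. In promoter windows from 250 bp before to 50 bp after the outermost start, TATCGATA was present at 15 of 73 members (20.5%), against 9.36% of protein-coding genes, and GGTCACACT at 8 of 73, against 6.04%. Of the 10 members with a combined peak, 2 had the first in that window and 1 the second. GAGAGAG was present at 1 member (1.37%), against 5.86%, and CGCATGCG at 0 of 73, against 0.623%. CACGTG was at 5 members (6.85%, against 4.23%) and TATAAA at 34 (46.6%, against 45.9%).

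After these searches, 6-letter words with at least 3 G or C were ranked at the 295 summits among the 300 highest that are not at members, by their excess over windows 500 bp away. The first was CCCTAC, read on both strands, at 45 of 295 summits (15.3%), against 2.37% of the flanking windows. Those shares are what chose the word. It was also at 130 of the 2683 combined summits that are neither at members nor among those 295 (4.85%), against 1.13% of protein-coding promoter windows of 101 bp. It matched at 1 of the 10 member summits, mRpS30, where it is capitalised in the printed window. That window is also the one in a coding exon. A match is a run of letters and was not tested as a binding site.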

How the data were processed

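The deposited peak lists are narrowPeak files for the dm6 build, per the labels and the accompanying file descriptions. Which aligner, peak caller and cut-offs made them is not given in the sources used here. The descriptions name 1 further input file besides the alignments. The score (column 7), as deposited by the authors, has no fixed range. The −log10 q-value (column 9), deposited by the authors, sits at a shared ceiling for 2266 of 2988 combined peaks and was not used for ranking. The dm3 lists were not used.

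Summits (column 2 plus column 10) are given 1-based. Genes and start sites came from Ensembl release 115 (BDGP 6.54, 18277 genes, transposable elements left out) and sequence from the RefSeq Release 6 genome; the last combined peak on 3R ended at 31977892 of 32079331 bp. Replicates were matched to combined peaks by at least 1 bp of overlap. Of the list symbols, 6 had no match. Tables were computed in Python 3.11.15 with pandas 2.3.3, numpy 2.4.6 and scipy 1.17.1 and plotted with matplotlib 3.10.9. The peak-to-gene rule was tested on simulated data.

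Members, lists and motifs were chosen with earlier results of these data known. The neighbour classes, base composition and CCCTAC were chosen after seeing the data. Named are members with a combined peak, those with a top entry in 2 or more replicates, the next 5 by pooled score, tko, bonsai, up to 3 leaders of each list, and nearest genes.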

Additional observations from a re-analysis of the deposited data

How the results depend on the processing

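Across the alternatives, 21 values stayed near the one reported and 8 moved. The number of member genes with a combined peak (10) was 5 when a peak counted only for its nearest gene, ties kept (6.85%, against 8.53% of protein-coding genes). It was 7 within 250 bp (9.59%, against 8.20%), 11 within 1000 bp (15.1%, against 13.6%), 8 with the 1494 highest-scoring peaks (11.0%, against 6.34%) and 10 with outermost starts only (13.7%, against 9.19%). Leaving out each replicate in turn, and keeping combined peaks supported by the top entries of the others, gave 6 to 8 genes, with 8.22% against 6.31% of protein-coding genes without replicate 1, 8.22% against 5.78% without replicate 2 and 11.0% against 7.76% without replicate 3; the combined list itself was not called anew. The mean share per replicate (13.2%) was 31.1% and 46.6% with the top 10000 and 30000 entries, 9.59% with a window of 250 bp, and 11.6% to 14.4% leaving out 1 replicate. Support in all 3 replicates was 3 of 10 peaks, not 6, with a reciprocal overlap of 50%. The share of all combined peaks under that rule is not given here, so the 3 cannot be read against a background. The combined peaks at mRpS2 and mRpL24 were 143 and 165 bp wide. Median entry widths were 470, 400 and 390 bp in replicates 1, 2 and 3, and the part of width was not tested. The median position of -142 bp was -33.0 bp over the peaks nearest to a member's start, with the tied peak of mRpL53, itself at -33 bp, kept. It was -142 to -136 bp leaving out 1 replicate. The 4 peaks nearest to a member were 3 leaving out each replicate. Alternatives by replicate for the last pair of results, and the count restricted to members with a close neighbour (9), were added after seeing the data. More entries or a narrower window change the counts by construction. No paired analysis was possible because there is 1 group. Depth is unknown, so an absent entry cannot be read as absent binding.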
